A study of Mus musculus with 2 samples.

Results

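The genes described here are 32 genes of sugar breakdown and of the response to low oxygen, measured in single cells of ulcerated mouse skin. They were taken by symbol from the 33696 gene rows of the files, and all 32 were found. Of these, 20 code for glycolytic enzymes, glucose and lactate transporters and the enzymes that regulate glycolysis. The other 12 are Hif pathway genes outside glycolysis. Aldoa stood in 2 gene rows, which were summed.

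The study held 2 libraries of lesional skin with ulcerative dermatitis, 1 from a wild-type mouse sample and 1 from a sample labelled as overexpressing Has2, a hyaluronan synthase, in the whole body. Both samples carried the same treatment label, tape stripping of the skin on 15 consecutive days at 40 to 50 strips per day to imitate scratching. That label starts in the middle of a sentence, so an earlier step may be missing from it. The labels used here name no strain, age, sex or transgene promoter. With 1 library per genotype there is no replicate spread, and nothing was tested. Effects of genotype, of the animal and of library preparation cannot be told apart. Every interval given is at 95% and covers counting error alone.

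Glycolysis breaks glucose down to pyruvate in a chain of cytosolic enzymes, and lactate dehydrogenase turns pyruvate into lactate when the mitochondria do not take it up. The transcription factor Hif1a is hydroxylated by the Egln prolyl hydroxylases and then degraded when oxygen is present. At low oxygen it is kept, enters the nucleus and binds the hypoxia response element, which raises genes of both groups described here. Wounds are poorly perfused and crowded with leukocytes, and macrophages and neutrophils are known to use glycolysis strongly.

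Promoters of the members were read from RefSeq (GRCm38.p6), a different build from that of the count files, as the 250 bases before each annotated start. A window was held for 29 of the 32 members, 40 windows in all, and none for Ndrg1, Bnip3l and Slc2a3. The motifs ACGTG and GCGTG, the core of the hypoxia response element, were searched on both strands, so the palindrome CACGTG counts as 2 matches. ACGTG was present in 55% of the members' windows and in 16.57% of all 32851 promoter windows. Either motif was present in 82.5% of the members' windows and in 38.6% of all windows. A match describes the letters only and is not a bound site. Shown are the windows of Bnip3, Ankrd37, Ero1a, Pgk1 and Tpi1, which were higher in Arg1-positive macrophages of both libraries, and of Adm, the member past 1.5-fold in opposite directions between the libraries in different cell classes. They run 5′ to 3′ on the gene's strand, with the matches in capitals.
Bnip3 (chr7:138909507-138909756, minus strand): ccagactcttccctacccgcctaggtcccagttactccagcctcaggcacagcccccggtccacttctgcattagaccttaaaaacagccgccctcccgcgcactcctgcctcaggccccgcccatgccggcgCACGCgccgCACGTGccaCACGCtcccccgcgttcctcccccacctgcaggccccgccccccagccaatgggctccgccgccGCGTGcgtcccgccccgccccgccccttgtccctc
Ankrd37 (chr8:45999851-46000100, minus strand): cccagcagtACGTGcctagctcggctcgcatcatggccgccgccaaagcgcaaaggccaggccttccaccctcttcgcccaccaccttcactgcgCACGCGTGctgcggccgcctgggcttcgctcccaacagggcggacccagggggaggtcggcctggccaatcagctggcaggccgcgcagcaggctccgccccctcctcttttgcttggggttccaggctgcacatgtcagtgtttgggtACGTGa
Ero1a (chr14:45318573-45318822, minus strand): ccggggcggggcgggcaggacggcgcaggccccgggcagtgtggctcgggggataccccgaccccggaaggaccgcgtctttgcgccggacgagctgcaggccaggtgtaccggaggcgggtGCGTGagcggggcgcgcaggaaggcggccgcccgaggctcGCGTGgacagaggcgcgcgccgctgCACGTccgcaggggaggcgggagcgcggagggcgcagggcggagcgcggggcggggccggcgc
Pgk1 (chrX:106186850-106187099, plus strand): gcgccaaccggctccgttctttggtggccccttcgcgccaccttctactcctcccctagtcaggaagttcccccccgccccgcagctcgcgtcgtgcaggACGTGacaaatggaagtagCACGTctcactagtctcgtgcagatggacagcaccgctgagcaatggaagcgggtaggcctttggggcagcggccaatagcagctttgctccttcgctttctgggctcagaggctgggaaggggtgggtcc
Tpi1 (chr6:124814159-124814408, minus strand): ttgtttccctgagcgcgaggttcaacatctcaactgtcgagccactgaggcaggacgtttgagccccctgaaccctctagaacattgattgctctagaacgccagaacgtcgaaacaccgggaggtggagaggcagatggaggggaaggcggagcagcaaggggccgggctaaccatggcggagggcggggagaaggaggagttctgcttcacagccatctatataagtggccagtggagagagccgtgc
Adm (chr7:110627407-110627656, plus strand): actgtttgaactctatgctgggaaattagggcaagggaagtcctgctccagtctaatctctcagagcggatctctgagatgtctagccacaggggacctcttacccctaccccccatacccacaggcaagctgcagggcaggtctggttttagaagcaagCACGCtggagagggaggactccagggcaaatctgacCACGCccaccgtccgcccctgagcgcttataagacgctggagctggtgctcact
Bnip3 had 5 matches, Ankrd37 4, Ero1a 3, Pgk1 2 and Tpi1 0. Adm had 2 matches, both of GCGTG. The members at least 1.5-fold higher in Arg1-positive cells held ACGTG in 46.67% of their windows and the other members in 60%, and either motif in 80% and 84%.

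Cells were assigned to classes by marker genes alone, none of which is a member, and all class names mean cells like the named type. The wild-type library held 6452 neutrophil-like, 3837 macrophage- or monocyte-like, 2136 fibroblast-like, 219 endothelial-like and 233 T or NK cell-like cells. The other library held 5310, 3507, 2282, 206 and 139 cells of these classes. Median depths were 3081.5 and 2071 UMIs in neutrophil-like cells, 8742 and 7432 in macrophage- or monocyte-like cells and 17891.5 and 24777 in fibroblast-like cells, wild type first. Neutrophil markers made up 175932 and 123468 counts per 1000000 (CPM) of neutrophil-like cells, and fibroblast markers 21212 and 55792 CPM of fibroblast-like cells. Has2 itself was at 72.5 CPM over all kept wild-type cells and 86.8 CPM in the other library, but at 189 and 148 CPM in fibroblast-like cells, which held most of its UMIs. It was higher in the second library at low levels in macrophage- or monocyte-like (0.367 and 2.06 CPM), neutrophil-like (1.83 and 3.85 CPM) and endothelial-like cells (3.06 and 8.68 CPM). The direction thus differed between classes, and the second sample is referred to as the library labelled Has2-transgenic. Across the libraries 79 cell barcodes were shared.

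The first comparison was between cell classes within each library. Levels are in CPM of all UMIs of the class. The kit reads 1 tag from the 5′ end of each molecule, so a level does not scale with transcript length. Together the 20 glycolysis genes made up 0.527% of all UMIs in wild-type neutrophil-like cells, 0.644% in macrophage- or monocyte-like cells and 0.636% in fibroblast-like cells, and 0.563%, 0.676% and 0.593% in the library labelled Has2-transgenic. Endothelial-like cells had 0.556% and 0.545%, and T or NK cell-like cells the lowest shares, 0.287% and 0.404%. The class with the highest level was the same in both libraries for 17 of the 20 glycolysis genes and for 7 of the 12 Hif pathway genes. Intervals of the highest and second-highest class did not overlap for 27 of 32 members in the wild-type library and for 25 in the other.

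Glucose enters through Slc2a1 and Slc2a3, the latter a transporter with high affinity for glucose. Slc2a1 was highest in fibroblast-like cells of the wild-type library at 93.0 CPM and in neutrophil-like cells of the other at 124 CPM. It was lowest in T or NK cell-like cells, at 23.1 and 25.8 CPM. Slc2a3 was at 128 CPM (123 to 133) in wild-type and 190.5 CPM (183 to 199) in Has2-labelled neutrophil-like cells. Its level was 1.05 and 0.709 CPM in macrophage- or monocyte-like cells and in fibroblast-like cells 2.46 and 2.59 CPM. Slc2a3 gave 61.3% (59.9 to 62.8) of the UMIs of both transporters in wild-type neutrophil-like cells and 60.7% (59.1 to 62.2) in the others. In fibroblast-like cells it gave 2.58% and 2.94%, and in macrophage- or monocyte-like cells 1.53% and 0.861%. T or NK cell-like cells, with only 44 and 28 UMIs of both, had 47.7% and 53.6%, and endothelial-like cells 7.21% and 6.23%. The share was thus high in neutrophil-like and T or NK cell-like cells and low in the other 3 classes, in both libraries. Neutrophil markers were at 546 and 322 CPM in the macrophage- or monocyte-like cells, and their part in the low Slc2a3 counts there was not tested.

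Hexokinases trap glucose in the cell by phosphorylating it, and the main form differed between classes. Hk2, the inducible form that binds mitochondria, was at 315 CPM (310 to 320) in wild-type and 248 CPM (244 to 252) in Has2-labelled fibroblast-like cells. It gave 90.6% and 90.7% of the hexokinase UMIs there. Hk3, a form known from myeloid cells, was at 205 and 197 CPM in neutrophil-like cells and gave 75.4% and 77.2% of their hexokinase UMIs. Hk1, the widely expressed form, was at 113 and 102 CPM in endothelial-like cells, 94.5% and 90.4% of the family, and it also gave most in T or NK cell-like cells, 74.5% and 72.0% of only 47 and 25 UMIs. Macrophage- or monocyte-like cells mixed the forms, with Hk3 again the largest at 55.2% and 43.5% and Hk2 at 27.1% and 36.4%. The intervals of these macrophage shares did not overlap between the libraries.

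**Figure D1:**
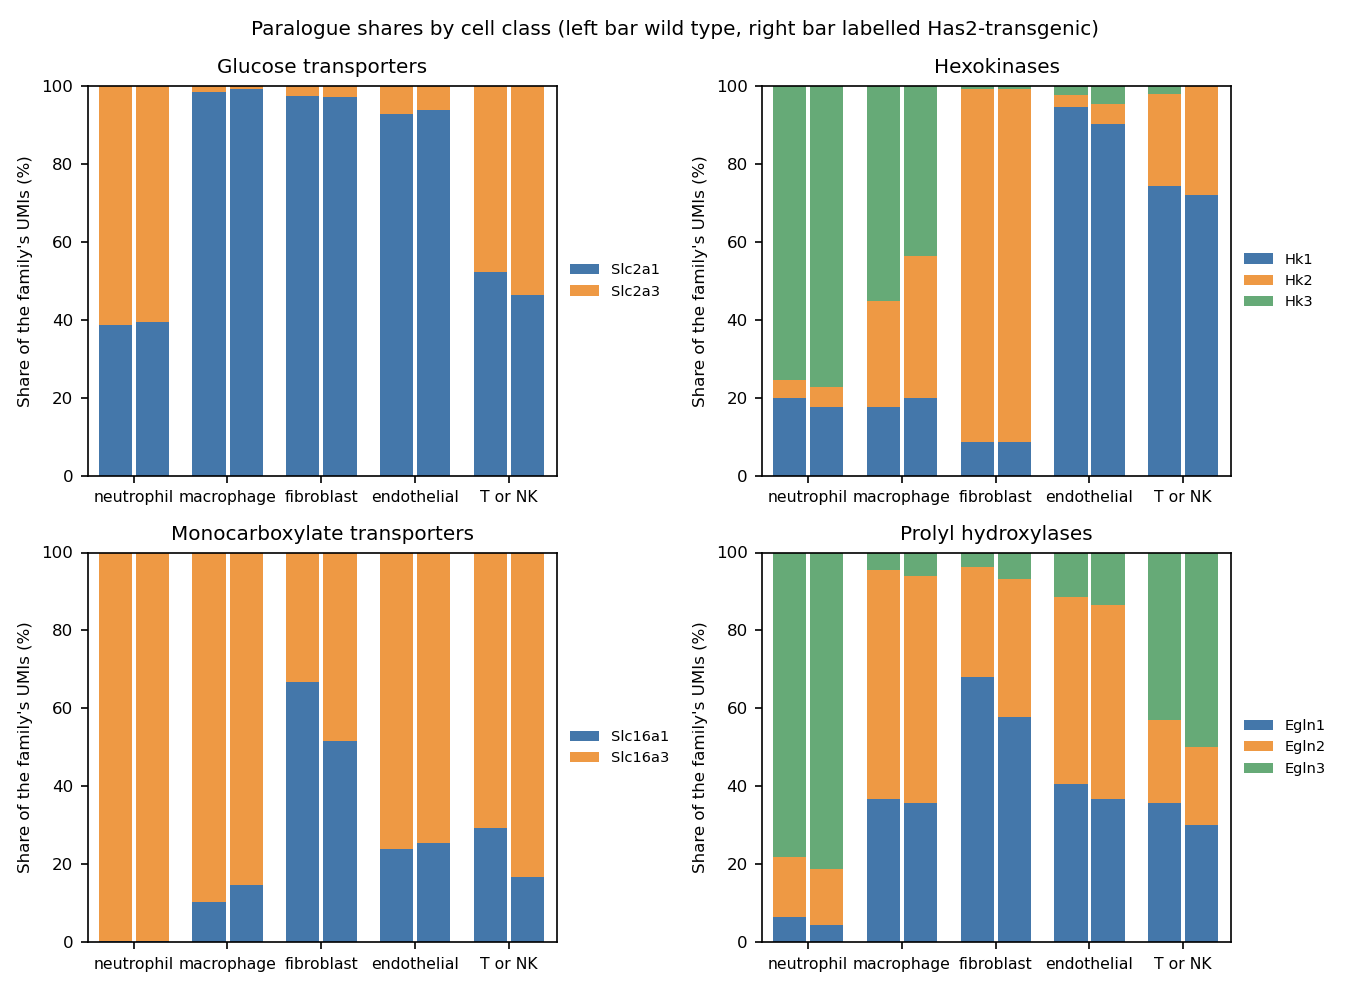
Share of a gene family's UMIs (%) held by each paralogue in 5 cell classes, with the wild-type library on the left and the library labelled Has2-transgenic on the right of each pair. Slc2a3, Hk3, Slc16a3 and Egln3 hold most UMIs of their families in neutrophil-like cells of both libraries, and Hk2 holds 90.6% and 90.7% in fibroblast-like cells.

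The upper enzymes followed other patterns. Gpi1, which isomerises glucose 6-phosphate, was highest in macrophage- or monocyte-like cells at 199.6 and 217 CPM, although in the library labelled Has2-transgenic that interval overlapped with T or NK cell-like cells. Phosphofructokinase commits sugar to glycolysis, and its platelet-type form Pfkp was highest of the 5 classes in T or NK cell-like cells at 147 and 135 CPM. Dendritic cell-like cells, outside these classes, had more, 233 and 198 CPM. The liver-type form Pfkl was highest in endothelial-like cells at 53.8 and 44.0 CPM. Aldoa, which splits fructose 1,6-bisphosphate, was highest in macrophage- or monocyte-like cells at 680.0 and 803 CPM. Tpi1, which interconverts the triose phosphates, was highest in fibroblast-like cells at 237 and 217 CPM. Pfkfb3 and Pfkfb4 make the activator of phosphofructokinase, and both were highest in neutrophil-like cells. Pfkfb3 was at 173 and 216 CPM there, and at 13.4 and 17.5 CPM in fibroblast-like cells. Pfkfb4 was at 81.4 and 76.8 CPM in neutrophil-like and 4.77 and 6.63 CPM in fibroblast-like cells.

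The lower enzymes were abundant in every class. Gapdh ran from 724 CPM in wild-type T or NK cell-like cells to 1990.2 CPM in wild-type endothelial-like cells. Pgk1, the first enzyme of the chain that yields ATP, was highest in macrophage- or monocyte-like cells at 446 and 405 CPM. Eno1, the enolase of most tissues, was also highest there, at 823 and 719 CPM. Pkm, a pyruvate kinase, was highest in macrophage- or monocyte-like cells of the wild-type library at 1086 CPM and in neutrophil-like cells of the other at 1105 CPM. Pgam1, a phosphoglycerate mutase, was highest in fibroblast-like cells of the wild-type library at 313 CPM and in macrophage- or monocyte-like cells of the other at 268 CPM.

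Lactate handling also split by class. Ldha, the lactate dehydrogenase subunit that favours lactate formation, was highest in fibroblast-like cells at 967 and 729 CPM and lowest in neutrophil-like cells at 266 and 281 CPM. Slc16a3 exports lactate, and it was highest in neutrophil-like cells at 424 and 314 CPM. It gave 99.6% and 99.7% of the UMIs of Slc16a1 and Slc16a3 there. Slc16a1, a transporter that carries lactate in either direction, was at 153 and 72.7 CPM in fibroblast-like cells and at 1.83 and 0.941 CPM in neutrophil-like cells. It gave 66.8% (65.9 to 67.7) of the pair in wild-type fibroblast-like cells and 51.6% (50.5 to 52.7) in the others.

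**Figure D2:**
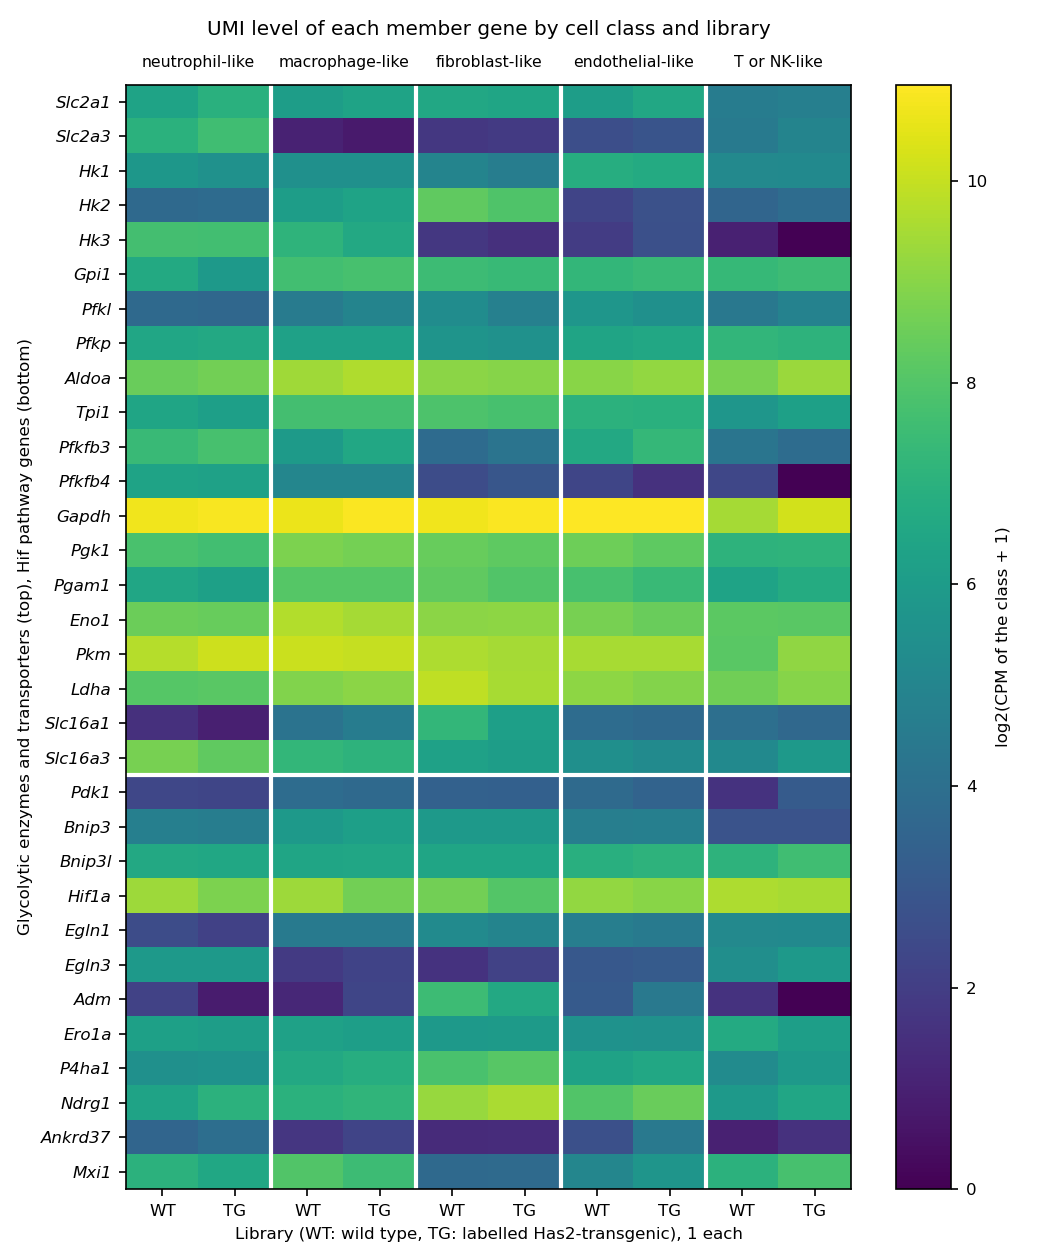
Level of each of the 32 members in 5 cell classes and both libraries, as log2(CPM of the class + 1), with glycolysis genes above the white line and Hif pathway genes below it. Slc2a3, Hk3, Pfkfb4 and Slc16a3 stand out in neutrophil-like cells, and Hk2, Adm and P4ha1 in fibroblast-like cells, in both libraries.

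Among the genes of oxygen sensing, Hif1a, on which the Egln enzymes act, was the most abundant Hif pathway member in 4 of these 5 classes. In fibroblast-like cells Ndrg1 was more abundant than Hif1a. Hif1a was highest in T or NK cell-like cells, at 788 CPM (734 to 845) and 745 CPM (672 to 824), and lowest in fibroblast-like cells, at 395 and 258 CPM. Egln3, a prolyl hydroxylase that is itself induced by Hif, was at 59.4 and 59.1 CPM in neutrophil-like cells and gave 78.0% and 81.3% of the UMIs of Egln1, Egln2 and Egln3 there. T or NK cell-like cells had Egln3 at 42.2 and 59.4 CPM, with intervals that overlapped with neutrophil-like cells in both libraries. It gave 42.9% and 50% of only 98 and 60 family UMIs there. Egln1, the main oxygen sensor of the family, gave 68.1% and 57.9% in fibroblast-like cells. Its level was highest in fibroblast-like cells of the wild-type library at 37.1 CPM and in T or NK cell-like cells of the other at 35.7 CPM. The intervals of these classes overlapped in both libraries. Egln2 gave the most in macrophage- or monocyte-like cells, 58.7% and 58.3%.

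Of the secreted and matrix members, Adm and P4ha1 were highest in fibroblast-like cells and Ero1a was not. Adm codes for adrenomedullin, a peptide that widens vessels, and was at 181 CPM (178 to 185) and 98.2 CPM (95.6 to 101) in fibroblast-like cells. Its level in macrophage- or monocyte-like cells was 1.30 and 3.88 CPM. P4ha1, a subunit of the enzyme that hydroxylates collagen prolines, was highest in fibroblast-like cells at 221 and 275 CPM. Ero1a, which forms disulphide bonds in the endoplasmic reticulum, varied less, from 46.4 to 104 CPM in the wild-type library and from 45.7 to 70.7 CPM in the other. The lowest levels were in endothelial-like cells. The highest were in T or NK cell-like cells of the wild-type library and in macrophage- or monocyte-like cells of the other, where these 2 classes overlapped. Ndrg1, a stress-induced gene, was highest in fibroblast-like cells at 618 and 761 CPM.

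Of the mitochondrial members, Bnip3 and Bnip3l are receptors for the removal of mitochondria. Bnip3 was at 60.1 and 71.3 CPM in macrophage- or monocyte-like cells and at 58.0 and 58.7 CPM in fibroblast-like cells, and the wild-type intervals of these classes overlapped. Bnip3l was highest in T or NK cell-like cells at 136 and 192 CPM. Pdk1, which holds pyruvate back from the mitochondria, stayed at or below 13.9 CPM in all 5 classes, with the overlapping highest levels in macrophage- or monocyte-like and endothelial-like cells. Mxi1, an antagonist of Myc, was at 249.8 and 182 CPM in macrophage- or monocyte-like cells and at 12.6 and 12.9 CPM in fibroblast-like cells. T or NK cell-like cells had 132 and 220 CPM, the highest level in the library labelled Has2-transgenic, with an interval that overlapped with macrophage- or monocyte-like cells. Ankrd37, a small ankyrin-repeat gene, was at 11.1 and 14.6 CPM in neutrophil-like cells and at 1.57 and 1.62 CPM in fibroblast-like cells. Endothelial-like cells had 5.47 and 20.7 CPM, the latter the highest of its library, with an interval that overlapped with neutrophil-like cells.

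The next comparison was between the libraries within a class. A ratio divides the CPM in the library labelled Has2-transgenic by the wild-type CPM, and a gene counts as past the fold at a ratio of at least 1.5 or at most 0.667, among genes with at least 20 UMIs over both libraries. In neutrophil-like cells 9 of 20 glycolysis genes had a ratio above 1, with a median log2 ratio of -0.06, and 3 of 12 Hif pathway genes did, with a median of -0.10. Of all 11544 genes measured there, 42.2% were higher, and the median was -0.10. In macrophage- or monocyte-like cells 11 of 20 and 8 of 12 were higher, with medians of 0.01 and 0.11, against 53.6% and a median of 0.03 for all genes. In fibroblast-like cells 5 of 20 and 8 of 12 were higher, with medians of -0.14 and 0.03, against 49% and a median of -0.01. The glycolysis list in fibroblast-like cells was thus the one furthest below its class, while its sum differed by a ratio of 0.933 (0.928 to 0.938). Within fibroblast-like cells with 0 UMIs of the myofibroblast genes after thinning to 1000 UMIs, an alternative added after the data were seen, 11 of 20 were higher. The median log2 ratio of all genes was -0.09 in these cells, and the share of all genes higher was not computed for them. The Hif pathway counts depended on processing, with 5 or 6 in neutrophil-like cells under several alternatives, 5 in macrophage- or monocyte-like cells thinned to 1000 UMIs and 4 or 5 in fibroblast-like cells.

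Few members passed the fold. In neutrophil-like cells 1 of 20 glycolysis genes was past it upward and 2 downward, and 1 of 12 Hif pathway genes in each direction, where 12.4% of all genes were past it upward and 19.5% downward. Slc16a1 and Adm, 2 of those past it downward, had under 100 UMIs each. In macrophage- or monocyte-like cells 1 glycolysis gene and 2 Hif pathway genes were past it upward and 1 Hif pathway gene downward, against 13.6% and 6.78% of all genes. In fibroblast-like cells 2 glycolysis genes and 2 Hif pathway genes were past it downward and 1 Hif pathway gene upward, against 8.51% downward and 18.4% upward. Most of these counts lie near or under the shares of all genes. The 2 of 12 Hif pathway genes past it downward in fibroblast-like cells lie above the 8.51%. Over the 3 classes, 22 of the 32 members passed the fold in none, and 1, Adm, passed it in both directions.

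Hif1a (ENSMUSG00000021109) was lower in the library labelled Has2-transgenic in all 3 classes. Macrophage- or monocyte-like cells had 649 CPM (641 to 658) and 399.9 CPM (393 to 407), wild type first, with a ratio of 0.616 (0.602 to 0.630). Fibroblast-like cells gave 395 and 258 CPM and a ratio of 0.654 (0.640 to 0.668), which ran up to 0.687 under another processing. Neutrophil-like cells gave 654 and 449 CPM and with a ratio of 0.687 (0.665 to 0.709). Endothelial-like cells had 579 and 510 CPM and T or NK cell-like cells 788 and 745 CPM, the latter with an interval of the ratio that included 1 (0.834 to 1.07). Beside it, 8 of 12 Hif pathway genes were higher in macrophage- or monocyte-like cells, where 53.6% of all genes were higher. With thinned cells 5 were higher, and the median log2 ratio of all genes was then -0.03 in place of 0.03. In neutrophil-like cells 9 of the 12, Hif1a among them, were lower. There 3 of the 12 were higher, where 42.2% of all genes were higher. Under several alternatives 5 or 6 were higher, and the median log2 ratio of all genes then ran from -0.09 to 0.01 in place of -0.10.

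Adm (ENSMUSG00000030790) differed in direction between classes. Fibroblast-like cells held 8335 and 5684 UMIs, which gave a ratio of 0.541 (0.523 to 0.560). Macrophage- or monocyte-like cells held 46 and 115 UMIs, a ratio of 2.99 (2.10 to 4.30), and in endothelial-like cells 35 and 74, a ratio of 2.71 (1.79 to 4.17). Only 75 and 9 UMIs fell in neutrophil-like cells. Nearly all Adm UMIs of these classes thus came from fibroblast-like cells, and the opposite direction rests on few UMIs. Fibroblast markers were at 54.0 and 58.1 CPM in the macrophage- or monocyte-like cells and at 74.6 and 185 CPM in the endothelial-like cells, and their part in the Adm counts was not tested.

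In neutrophil-like cells both glucose transporters had the higher level in the library labelled Has2-transgenic. Slc2a1 was at 80.5 and 124 CPM, with a ratio of 1.53 (1.43 to 1.65) that was 1.44 at the lowest under other processing, and Slc2a3 had a ratio of 1.49 (1.41 to 1.58), just under the fold. Ndrg1 was at 80.1 and 132 CPM, giving a ratio of 1.64 (1.53 to 1.76). Gpi1 ran the other way, at 99.4 and 58.9 CPM, a ratio of 0.592 (0.543 to 0.646). Pkm was at 842 and 1105 CPM, with a ratio of 1.31 (1.28 to 1.34), while Slc16a3 was at 424 and 314 CPM, giving a ratio of 0.741 (0.713 to 0.770). Keratinocyte markers were at 17.8 and 146 CPM in these cells, and the part of such RNA in the ratios was not tested. The libraries also differed in neutrophil states, which these ratios pool. In the split by Retnlg described below, 5213 wild-type cells were positive and 559 free, against 2267 and 2037 in the other library.

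Macrophage- or monocyte-like cells had Pfkfb3 at 62.2 and 94.1 CPM, a ratio of 1.51 (1.43 to 1.60) that ran from 1.31 to 1.66 under other processing. Ankrd37, with 84 and 110 UMIs, was at 2.37 and 3.71 CPM, with a ratio of 1.56 (1.17 to 2.10) that ran from 1.18 to 1.73. Hk3 was at 138 and 96.4 CPM, giving a ratio of 0.697 (0.665 to 0.730), and Mxi1 had a ratio of 0.728 (0.703 to 0.753). Hk1 at 44.5 CPM in each library and Egln1 at 21.3 CPM in each served as contrast. The libraries differed in macrophage states, since 1582 of the wild-type cells and 744 of the others held at least 2 Arg1 UMIs after each cell was thinned to 1000 UMIs.

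In fibroblast-like cells Slc16a1 was at 153 CPM (150 to 157) and 72.7 CPM (70.5 to 74.9), a ratio of 0.475 (0.457 to 0.493). Pfkl was at 39.4 and 26.1 CPM, with a ratio of 0.664 (0.620 to 0.712) that reached 0.676 under other processing. Egln3, with 93 and 205 UMIs, was at 2.02 and 3.54 CPM, giving a ratio of 1.75 (1.36 to 2.26). Ldha had a ratio of 0.754 (0.744 to 0.764) and Hk2 of 0.788 (0.770 to 0.806), whereas P4ha1 had 1.24 (1.21 to 1.27) and Ndrg1 1.23 (1.21 to 1.25). Among glycolysis genes Gapdh at 1.12, Pfkfb3 at 1.30, Pfkfb4 at 1.39 and Eno1 at 1.03 had ratios above 1 with intervals that left out 1.

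**Figure D3:**
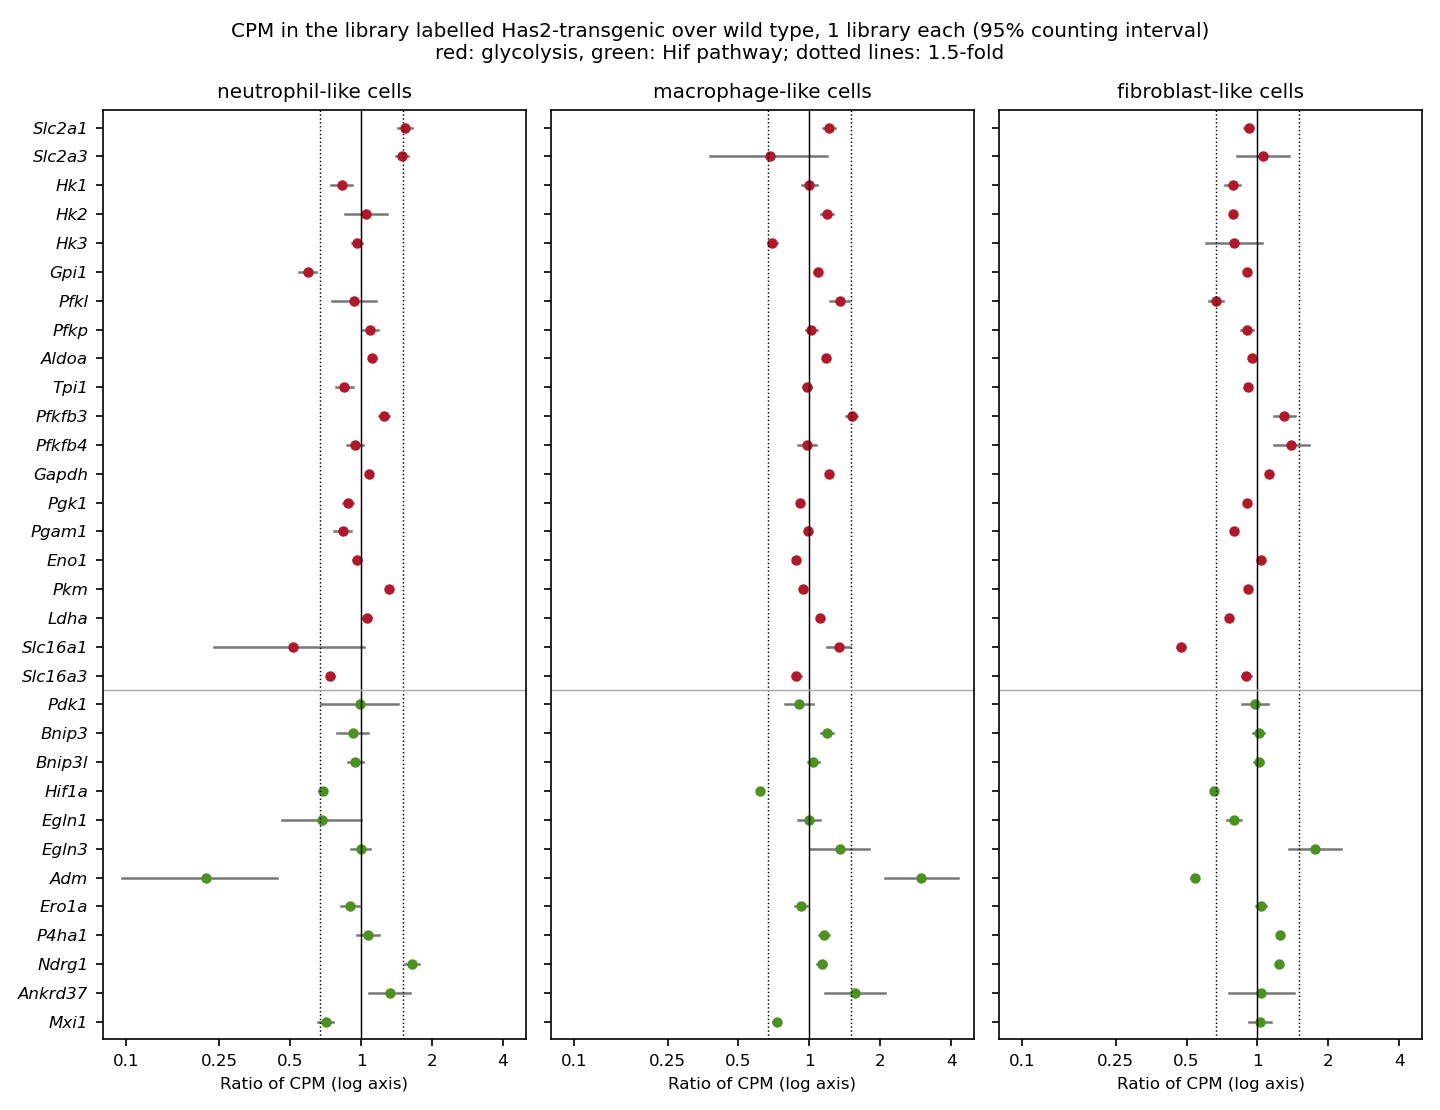
Ratio of CPM (library labelled Has2-transgenic divided by wild type) for each member with at least 20 UMIs, on a log axis, in 3 cell classes, with bars for the 95% counting interval and dotted lines at 1.5-fold. Hif1a lies left of 1 in all 3 panels, and Adm lies far right in macrophage-like and left in fibroblast-like cells.

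The smaller classes gave wider intervals. Endothelial-like cells had Pfkfb3 at 96.5 and 157 CPM, a ratio of 1.63 (1.44 to 1.85), and Mxi1 at 32.2 and 51.0 CPM, a ratio of 1.59 (1.27 to 1.98). There 3 of 20 glycolysis genes were past the fold upward and 1 downward, and 3 of 12 Hif pathway genes upward, where 13.6% of all genes were past it upward and 8.73% downward. Hk2, Hk3 and Pfkfb4, the other glycolysis genes in this count, had under 100 UMIs each, and so did Ankrd37. Erythroid markers were at 9.84 CPM in the wild-type and 1343 CPM in the other endothelial-like cells. T or NK cell-like cells had Pkm at 286 and 569 CPM, a ratio of 1.99 (1.68 to 2.35), and Gapdh at 724 and 1191 CPM, a ratio of 1.65 (1.47 to 1.84). Ndrg1 had a ratio of 1.56 (1.03 to 2.34) and Mxi1 of 1.67 (1.29 to 2.17) there. Of the members measured in these cells, 13 of 17 glycolysis and 6 of 8 Hif pathway genes had a ratio above 1, against 49.3% of all genes. The fold was passed upward by 3 of each group and downward by none, against 11.6% and 12.1%, with Slc16a3 and P4ha1 among them from under 100 UMIs each. Neutrophil markers were at 303 and 636 CPM and skeletal muscle markers at 15.1 and 83.2 CPM in the T or NK cell-like cells, and their part in these ratios was not tested.

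Other genes of both pathways were counted from separate lists. In fibroblast-like cells 9 of 15 other glycolysis genes and 12 of 22 other hypoxia genes had a ratio above 1, beside 49% of all genes. Bpgm, which makes 2,3-bisphosphoglycerate, was at 18.0 and 41.8 CPM there, a ratio of 2.33 (2.15 to 2.52). P4ha2, a second collagen prolyl hydroxylase subunit, was at 102 and 225 CPM, with a ratio of 2.21 (2.13 to 2.28). Tigar, a fructose bisphosphatase, was at 2.70 and 1.09 CPM, giving a ratio of 0.403 (0.293 to 0.550). Among macrophage- or monocyte-like cells 11 of 13 and 13 of 19 were higher, beside 53.6% of all genes, among them Ldhb, the heart-type lactate dehydrogenase subunit, at 1.75 and 4.62 CPM and Selenbp1 at 8.87 and 23.8 CPM. In neutrophil-like cells 5 of 8 and 7 of 17 were higher, beside 42.2% of all genes, and none with at least 100 UMIs reached a 2-fold ratio. Ddit4, a stress-induced inhibitor of mTOR, was at 58.3 and 139 CPM in T or NK cell-like cells, a ratio of 2.38 (1.66 to 3.43). Of the other oxygen-sensing genes, 1 of 5, 2 of 5 and 2 of 5 were higher in neutrophil-like, macrophage- or monocyte-like and fibroblast-like cells, against the same shares of all genes.

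The last comparison was between states of 1 class within each library, so that each library gives its own value. Cells were thinned to 1000 UMIs and those with at least 2 UMIs of a marker were set against those with 0, and members were then compared on their full counts. Arg1, an arginase of wound macrophages, split macrophage- or monocyte-like cells into 1582 and 1710 cells in the wild-type library and 744 and 2375 in the other. All 12 Hif pathway genes were higher in the Arg1-positive cells of both libraries, where 28.4% of all 11896 genes were. Of these, 6 were at least 1.5-fold higher in both, against 3.22% of all genes, and none was lower. The 6 were Adm, Ankrd37, Bnip3, Egln3, Ero1a and Pdk1.

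Bnip3 was at 31.6 CPM in Arg1-free and 92.8 CPM in Arg1-positive wild-type cells, a ratio of 2.94 (2.65 to 3.26), and at 49.7 and 135 CPM in the other library, a ratio of 2.72 (2.48 to 2.98). Ero1a had ratios of 1.57 (1.44 to 1.70) and 2.09 (1.90 to 2.29). Pdk1 had 1.65 (1.35 to 2.02) and 1.74 (1.38 to 2.19). Ankrd37 had 2.93 (1.73 to 5.16) and 3.36 (2.22 to 5.09), from 20 UMIs in Arg1-free and 56 in Arg1-positive wild-type cells and 48 and 51 in the other library. Egln3 had 1.96 (1.25 to 3.13) and 5.51 (3.58 to 8.61). Adm had 1.64 in the wild-type library, with an interval that included 1 (0.840 to 3.28), and 3.43 (2.27 to 5.18) in the other. Hif1a was also higher, at 548 and 757 CPM in the wild-type and 355 and 535 CPM in the other library.

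Among glycolysis genes 12 of 20 were higher in Arg1-positive cells of both libraries and 5 lower, where 44.9% of all genes were lower. Aldoa, Tpi1, Pgk1 and Eno1 were at least 1.5-fold higher in both. Tpi1 had ratios of 1.91 (1.81 to 2.01) and 1.78 (1.68 to 1.88), Pgk1 1.69 (1.63 to 1.75) and 2.24 (2.15 to 2.33), and Eno1 1.66 (1.62 to 1.70) and 2.17 (2.10 to 2.23). Pfkfb3 and Hk2 ran the other way. Pfkfb3 was at 91.0 CPM in Arg1-free and 36.0 CPM in Arg1-positive wild-type cells, a ratio of 0.395 (0.358 to 0.437), and at 117 and 47.6 CPM in the other library, a ratio of 0.406 (0.359 to 0.457). Hk2 had ratios of 0.671 (0.614 to 0.733) and 0.555 (0.493 to 0.624). Pfkfb3 was the only member at least 1.5-fold lower in both libraries, against 9.34% of all genes.

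Of other hypoxia genes measured in both libraries, 6 of 18 were at least 1.5-fold higher in Arg1-positive cells of both, namely Ak4, Fam162a, Gys1, Mif, Nos2 and Vegfa, and 1, Angptl4, was lower, beside 3.22% and 9.34% of all genes. Of other glycolysis genes none of 13 was past the fold upward in both and 2, Bpgm and Slc16a7, were past it downward. Vegfa, the vessel growth factor, had ratios of 1.86 (1.76 to 1.96) and 1.63 (1.54 to 1.73). Median depths of Arg1-positive and Arg1-free cells were 9112 and 8578 UMIs in the wild-type and 7707.5 and 7398 in the other library. Neutrophil markers were at 559.7 and 518 CPM in the wild-type and 332 and 324 CPM in the other library, positive cells first. Endothelial markers were at 82.5 against 35.1 CPM and 55.0 against 28.6 CPM, and dendritic cell markers at 9.63 against 40.2 CPM and 9.79 against 54.6 CPM. Ribosomal protein genes took 7.18% against 9.22% and 7.55% against 9.27% of UMIs. Macrophage or monocyte markers were lower in the positive cells, at 5973 against 8171 CPM and 6239.7 against 10957 CPM. The part of these differences in the member ratios was not tested.

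**Figure D4:**
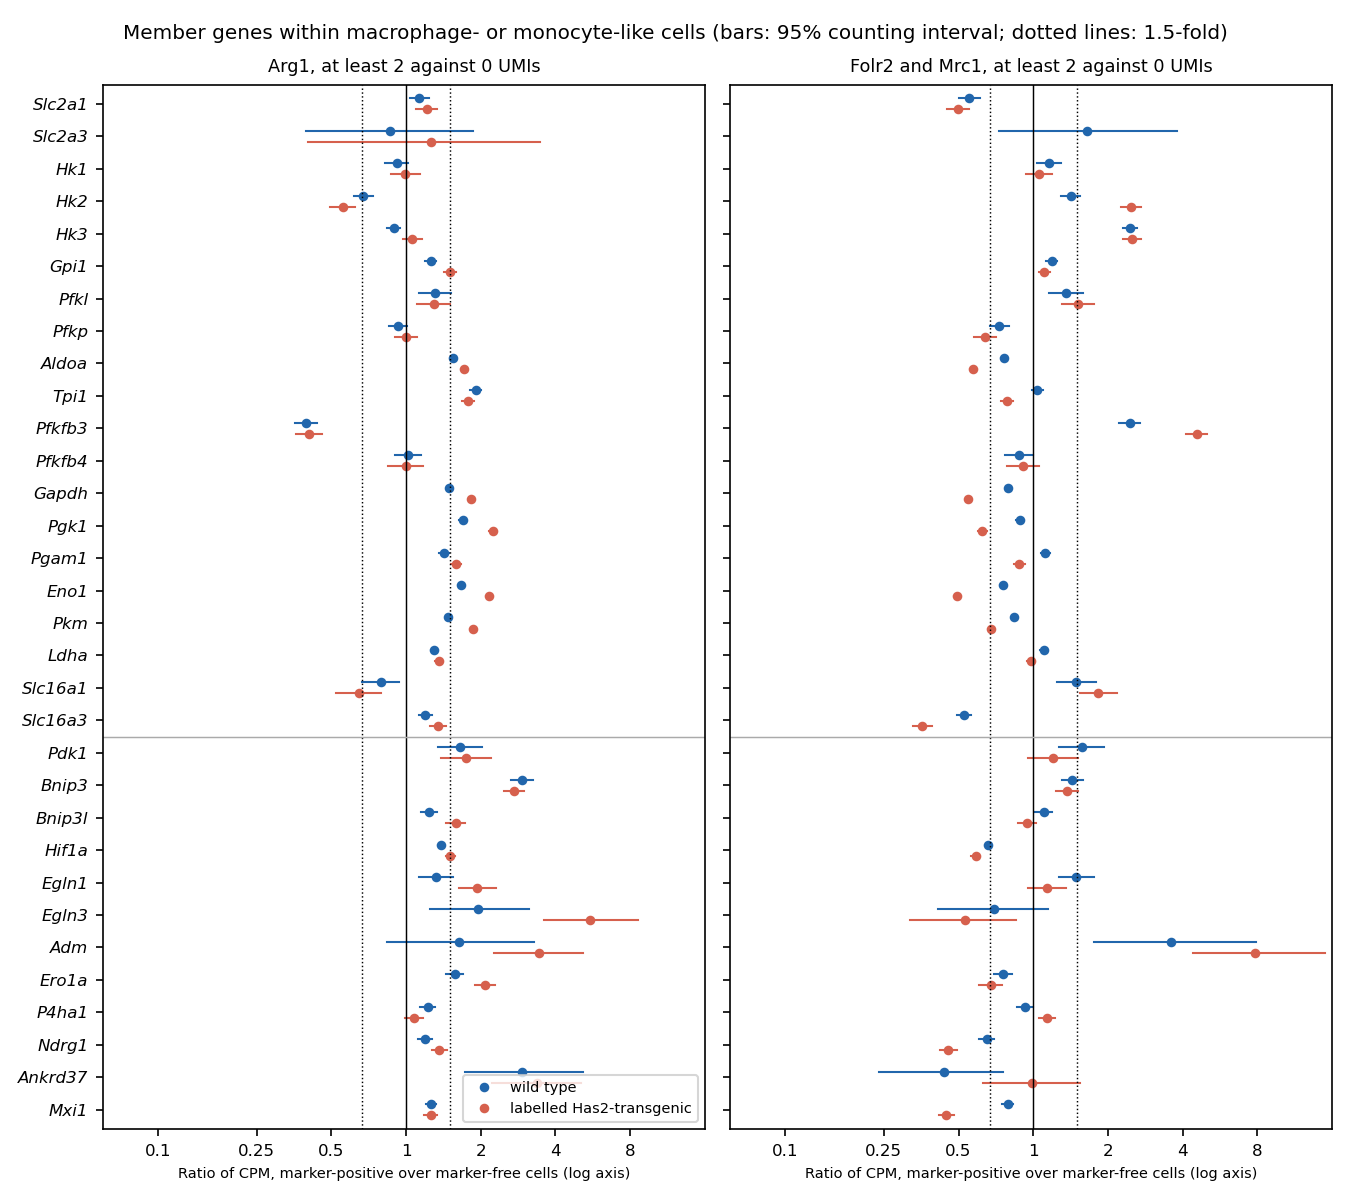
Ratio of CPM in marker-positive over marker-free macrophage- or monocyte-like cells for each member, on a log axis, with the wild-type library in blue, the other in red and bars for the 95% counting interval. All Hif pathway genes lie right of 1 for Arg1 in both libraries, and Pfkfb3 lies left of 1 for Arg1 and right of 1 for Folr2 and Mrc1.

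Folr2 and Mrc1 mark macrophages of a resident kind, and split the class into 1368 positive and 1739 free cells in the wild-type and 1052 and 1805 in the other library. Pfkfb3 was higher in the positive cells, with ratios of 2.45 (2.22 to 2.70) and 4.56 (4.14 to 5.02), as was Hk3, with 2.45 (2.29 to 2.61) and 2.49 (2.29 to 2.72). Adm had 3.59 (1.76 to 7.89) and 7.86 (4.42 to 15.0), from 11 UMIs in free and 32 in positive wild-type cells and 14 and 80 in the other library. Against these, Slc16a3 had 0.528 (0.495 to 0.564) and 0.358 (0.328 to 0.389), Slc2a1 0.553 (0.502 to 0.609) and 0.498 (0.450 to 0.550), Ndrg1 0.649 (0.606 to 0.694) and 0.454 (0.420 to 0.491), and Hif1a 0.657 (0.638 to 0.677) and 0.585 (0.561 to 0.611). Thus 3 members were at least 1.5-fold higher in both libraries and 4 lower, where 15.2% and 8.44% of all 11765 genes were. At any ratio, 7 of 19 glycolysis genes and 4 of 12 Hif pathway genes were higher in both libraries, where 44.7% of all genes were, and 9 and 6 were lower, where 30.8% were. Mrc1 is itself 1 of the class markers.

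Retnlg is a gene of neutrophils recently out of the bone marrow and itself a class marker. It split neutrophil-like cells into 5213 positive and 559 free cells in the wild-type and 2267 and 2037 in the other library. Neutrophil markers were at 186451 against 102716 CPM and 138607 against 108671 CPM, positive cells first. Dendritic cell markers were at 8.25 against 50.5 CPM and 3.69 against 7.91 CPM. No member was past the fold in both libraries, and the part of these marker differences was not tested. Of all genes, 1.01% were past it upward and 7.32% downward. At any ratio, 5 of 19 glycolysis and 3 of 11 Hif pathway genes were higher in both, against 17.3% of all genes, and 8 and 5 were lower, against 52% of all genes. Ctsk and Acp5, genes of osteoclasts, marked only 39 wild-type and 74 other macrophage- or monocyte-like cells. Pfkfb3 was the only member past the fold downward there in both libraries, where 5.23% of all genes were, and none was past it upward, where 11.8% were. At any ratio, 10 of 20 glycolysis and 3 of 12 Hif pathway genes were higher in both, against 35.8% of all genes, and 3 and 0 were lower, against 20.3%.

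Fibroblast-like cells were split by Il6 into 929 positive and 661 free cells in the wild-type and 507 and 1272 in the other library. Adm was the member with the largest difference. It was at 80.2 CPM in Il6-free and 249 CPM in Il6-positive wild-type cells, a ratio of 3.11 (2.91 to 3.31), and at 54.6 and 191 CPM in the other library, a ratio of 3.50 (3.30 to 3.72). Hk2 had ratios of 1.47 (1.41 to 1.53) and 1.73 (1.66 to 1.79). Pfkfb4 had 0.447 (0.328 to 0.606) and 0.427 (0.309 to 0.579), Mxi1 0.599 (0.497 to 0.720) and 0.582 (0.473 to 0.710), and Egln3 0.606 and 0.623. At least 1.5-fold higher in both libraries were 1 of 32 members and 2.71% of all 13598 genes, and 3 members and 11.4% of all genes were lower. At any ratio, 4 of 20 glycolysis and 2 of 12 Hif pathway genes were higher in both, against 16% of all genes, and 13 and 9 were lower, against 61.9%. Adm was lower in the library labelled Has2-transgenic on either side of this split. Median depth in the wild-type library was 24031 UMIs in Il6-positive and 14266 in Il6-free cells, and 25453 and 25712.5 in the other.

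The contractile and wound matrix genes Acta2, Tagln, Postn and Lrrc15 marked myofibroblast-like cells. Only 46 wild-type cells were positive and 1750 free, against 643 and 1179 in the other library. Adm was at 197 CPM in free and 23.8 CPM in positive wild-type cells, a ratio of 0.121 (0.0829 to 0.171), and at 135 and 40.2 CPM in the other library, a ratio of 0.297 (0.274 to 0.322). Bnip3 had ratios of 0.253 (0.156 to 0.387) and 0.340 (0.308 to 0.374). Slc16a3 had 0.455 (0.335 to 0.604) and 0.384 (0.351 to 0.418), Pfkl 0.462 (0.298 to 0.684) and 0.412 (0.359 to 0.472), and Hk2 0.564 (0.496 to 0.640) and 0.553 (0.531 to 0.576). Pdk1 had 0.314 (0.0851 to 0.810) and 0.620 (0.498 to 0.768).

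These 6 members were at least 1.5-fold lower in positive cells of both libraries, where 5.04% of all 13809 genes were. Of 20 glycolysis genes 16 were lower in both and of 12 Hif pathway genes 7, where 19.5% of all genes were, and 2 and 1 were higher, where 44.6% were. In the library labelled Has2-transgenic 13 of 20 were past the fold downward, where 10.2% of all genes were, and 4 in the wild-type library, where 15.3% were. Ldha was at 940.0 CPM in free and 444 CPM in positive cells there, a ratio of 0.472 (0.461 to 0.484). Pfkfb4 stood against the rest, with ratios of 3.38 (2.02 to 5.38) and 1.99 (1.58 to 2.50), where 9.04% of all genes were past the fold upward in both. Of other hypoxia genes 6 of 21 were at least 1.5-fold lower in both, among them Vegfa with 0.490 (0.427 to 0.560) and 0.340 (0.320 to 0.360), and 2, Angptl4 and Car12, were higher. Bpgm was at 14.9 CPM in free and 88.2 CPM in positive cells of the library labelled Has2-transgenic, a ratio of 5.94 (5.34 to 6.61), and at 16.6 and 20.1 CPM in the wild-type library. Fibroblast markers were at 77113 CPM in positive and 40456 CPM in free cells of the library labelled Has2-transgenic and at 27659 and 20499.8 CPM in the wild-type library, and their part in the lower levels was not tested.

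**Figure D5:**
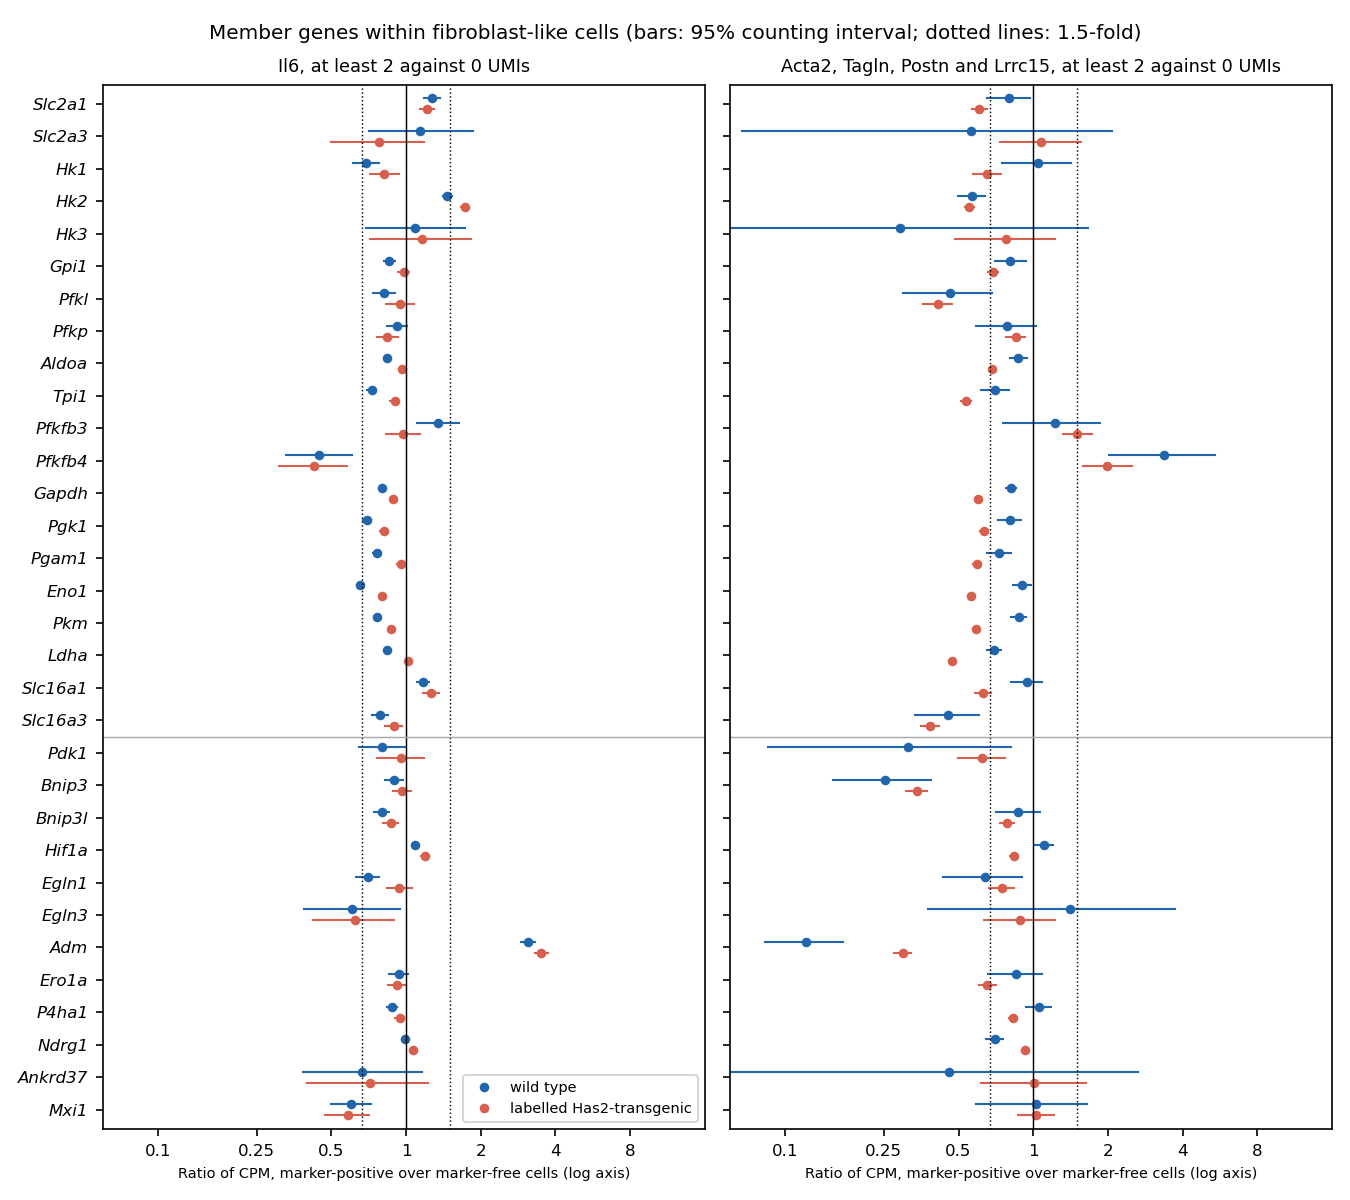
Ratio of CPM in marker-positive over marker-free fibroblast-like cells for each member, on a log axis, with the wild-type library in blue, the other in red and bars for the 95% counting interval. Adm lies right of 1 for Il6 and left of 1 for the myofibroblast genes in both libraries, and 2 wild-type intervals, of Hk3 and Ankrd37, run past the left edge.

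With the states held apart, in an alternative added after the data were seen, some fibroblast ratios between libraries lay on the other side of 1. This was so for 10 of 32 members in the myofibroblast-like positive cells and for 10 of 32 in the cells with none of these UMIs after thinning. Of members past the fold, Adm had a ratio of 1.66 in the positive cells, from 32 wild-type UMIs, and Egln3 had 0.991. The positive side holds 46 wild-type cells.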

How the data were processed

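Single cells of ulcerated skin were measured in 2 libraries, 1 per genotype. The authors deposited whole-number UMI counts per gene and cell barcode, made with Cell Ranger 9.0.1 on GRCm39 per the submitters' processing notes; no further filter is given in the sources used here. Per the labels one library was made from total RNA and the other from polyA RNA, with the same protocol text, and they are named rep1 and rep2 although the genotypes differ. The libraries held 16999 barcodes with 143875454 UMIs (wild type) and 14622 with 134917708.

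Barcodes with under 200 genes (137 and 150) or over 15% mitochondrial UMIs (25 and 57) were removed. The automatic threshold of Scrublet marked 0 doublets, so the highest-scoring share expected at 0.4% per 1000 barcodes was removed (1154 and 853). The 15683 and 13562 cells kept had a median of 4168 and 4177 UMIs. A cell took the class with the largest share of its marker genes detected, if that share was at least 30% and led the next class by 10 percentage points. Neutrophil-like cells also needed 100 marker UMIs per 10000. These thresholds were set after marker levels, not the members, were seen. Under a stricter gate (45% and 25 percentage points), and so near the limits, lay 199 and 335 neutrophil-like, 901 and 752 macrophage- or monocyte-like, 212 and 109 fibroblast-like, 29 and 16 endothelial-like and 51 and 48 T or NK cell-like cells. The median cell held 0 markers of nearly every other class, the highest exception being 3.35 and 1.71 neutrophil marker UMIs per 10000 in macrophage- or monocyte-like cells. A clustering into 27 Leiden clusters served as an alternative.

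Raw counts were summed per library and class and divided by the class total (CPM). Intervals of levels are exact Poisson and those of shares and ratios exact Clopper-Pearson intervals at 95%, and cover counting error only. Log2 ratios carry 0.5 added counts. The calculation was checked on simulated counts. A member was named in a library comparison with at least 100 UMIs and a ratio past 1.5-fold, an other pathway gene past 2-fold, and every member across classes; members outside this rule were named for completeness after their values were seen. The members and lists were chosen with earlier results of these data known. Alternatives covered doublet removal, gene and mitochondrial filters, per-cell means, thinning to 1000 UMIs, 2 other scalings, the low-count filter, class assignment and leaving out the top cell of each gene. Promoter windows come from GRCm38.p6 and no coordinates were carried over. Tools were Python 3.11.15, scanpy 1.11.5, numpy 2.4.6, scipy 1.17.1, pandas 2.3.3, matplotlib 3.10.9 and edgeR 4.0.16, the last for TMM scaling factors alone.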

Additional observations from a re-analysis of the deposited data

Results flagged for a closer look

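Adm, the gene of adrenomedullin, had opposite directions between libraries in different classes. Dividing the level in the library labelled Has2-transgenic by that in wild type gave 0.541 in fibroblast-like cells, 2.99 in macrophage- or monocyte-like cells and 2.71 in endothelial-like cells. The intervals lie on opposite sides of 1, but the difference between classes was not tested, since each genotype has 1 library.

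In macrophage- or monocyte-like cells split by Ctsk and Acp5, 2 members were past 1.5-fold in opposite directions in the libraries. Bnip3 had a ratio of marker-positive over marker-free cells of 1.55 in the wild-type library and 0.45 in the other. Pfkl had 0.258 and 1.54. Neutrophil markers were at 1769.8 CPM in positive and 532 CPM in free wild-type cells, and at 125 and 337 CPM in the other library. Ribosomal protein genes took 7.06% and 8.27% of UMIs in the wild-type and 14.3% and 8.61% in the other. The part of these in the ratios was not tested. The values rest on 39 and 74 positive cells, and the difference between libraries was not tested.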

How the results depend on the processing

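No paired analysis was possible because each genotype has 1 library, and for the same reason no replicate was left out. Depth limits members with few UMIs, and all intervals leave out the spread between animals.

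Of 93 member ratios with at least 100 UMIs, 1395 values were computed under alternatives. Of these, 98 lay on the other side of 1 from the main value, in 45 of the ratios, or in 22 under the alternatives listed at the start. Among ratios past 1.5-fold this was so for 2, Adm at 1.66 and Egln3 at 0.991 in fibroblast-like cells with at least 2 myofibroblast UMIs after thinning, a setting added after the data were seen. Of the other values, 1136 lay within the counting interval of the main ratio and 257 outside it. Of 12 ratios past 1.5-fold, 5 were under it in some alternative, and 8 others were past it in some alternative.

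Hif pathway genes higher in neutrophil-like cells numbered 3, and 5 with at least 500 genes per cell, with TMM scaling, with Leiden clusters and with cells whose gate and cluster share a name (added later), and 6 with cells thinned to 1000 UMIs and with a stricter gate. In macrophage- or monocyte-like cells they numbered 8, and 5 when thinned. In fibroblast-like cells they numbered 8, and 4 without doublet removal and 5 with per-cell means or thinning. Glycolysis genes higher in fibroblast-like cells numbered 5, and 8 with per-cell means or thinning and 11 in cells with 0 myofibroblast UMIs after thinning (added later). Thinning also measured fewer members, and the cause of these shifts was not tested. The share of all genes with a ratio above 1 was computed for the main values alone.

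Genes past the fold numbered 3681 in neutrophil-like cells, and 2297 when thinned, 1706 with at least 100 UMIs and 12260 with no filter. Macrophage- or monocyte-like cells gave 2862, and 1538, 1397 and 9387 in that order. Fibroblast-like cells gave 4420, and 2384, 2671 and 10306. With Leiden clusters 56.3% of the genes past the fold in neutrophil-like cells had a ratio above 1, against 38.9% with the gate, and the median log2 ratio of all genes was 0.01 in place of -0.10.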

Other observations

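Keratinocyte-like cells, the cells of the epidermis, numbered 21 in the wild-type and 172 in the library labelled Has2-transgenic, too few in the former for the comparisons above. The 20 glycolysis genes together were at 5230 CPM (5006 to 5463) and 9179 CPM (9087 to 9272), a ratio of 1.75 (1.68 to 1.84). The wild-type values lean on few cells: the cell with the most UMIs of a gene gave 34.5% of those of Gapdh, 43.0% for Pkm and 36.6% for Ldha, and the counting intervals leave this out. The 12 Hif pathway genes together were at 1712 and 1294 CPM, a ratio of 0.756 (0.697 to 0.820). Gapdh was at 1632 and 2946 CPM, Pkm at 573 and 1194 CPM and Ldha at 612 and 1186 CPM. Ndrg1, a stress-induced gene, was at 874 and 509 CPM, and the lactate transporter Slc16a1 at 84.8 and 32.3 CPM. Dendritic cell-like cells, 175 and 49, had the glycolysis genes at 3904 and 4591 CPM.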
